A study of Homo sapiens with 6 samples.

Results

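The human mitochondrial genome encodes 37 genes, and all 37 were among the 57914 genes of the deposited tables. They were taken as every row whose gene name begins with MT-, and they comprise 13 messenger RNAs (mRNAs), 2 ribosomal RNAs (rRNAs) and 22 transfer RNAs (tRNAs). RNA was sequenced from A375, an established human melanoma cell line, after staining with Aldefluor, a substrate that turns fluorescent in cells with aldehyde dehydrogenase (ALDH) activity. ALDH_High denotes the cells in the brightest 5% and ALDH_Low those in the dimmest 5%, with 3 libraries each, numbered 1 to 3. Both groups came from 1 line, grown in high-glucose DMEM with 10% serum and 2 mM glutamine, and the labels name no added allele or drug for either. Where 3 values of a group follow each other below, they are those of its libraries 1, 2 and 3. The labels do not say that the libraries came from separate cultures, so p-values measure only the spread between these samples, which may be technical.

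Mitochondrial DNA is transcribed from both of its strands by a dedicated polymerase into long precursors. The tRNAs lie between most of the other genes, and their excision releases the mRNAs and rRNAs. Most mRNAs then receive a short poly(A) tail, and their products are membrane subunits of respiratory complexes I, III and IV and of ATP synthase, whose remaining subunits come from nuclear genes. Libraries were made with a kit that selects RNA by its poly(A) tail, so rRNAs and tRNAs are captured only in part, and their levels are given apart from those of the mRNAs.

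Total counts per library lay between 26692868 and 37830603. ALDH1A3, the ALDH gene named with the sort, had 683, 1149 and 1088 CPM (counts scaled to a common library size, with TMM factors) in ALDH_High, against 345, 420 and 403 in ALDH_Low. The groups were apart, with ALDH_High above (log2 fold change 1.32, edgeR quasi-likelihood adjusted p 0.000734). Of 10 melanoma marker genes 7 passed the filter on low counts. Of these 7, 4 rose in ALDH_High (SOX10, S100A1, S100B and MIA). The 2 that fell were MITF (log2 fold change -0.92, edgeR adjusted p 0.00667) and TFAP2A (-0.58, 0.0266). Over all genes tested, 10.8% were higher and 9.83% lower in ALDH_High. SOX10 averaged 670 ± 122 CPM in ALDH_High against 194 ± 18.3 CPM in ALDH_Low (SD, n = 3), but the pigment genes MLANA and TYR never exceeded 3 counts. Of the 7 white blood cell markers, PTPRC had at most 4 counts and NKG7 none. CD68, CD14 and LYZ passed the filter and differed between groups, as given near the end of the Results. CD68 averaged 17.4 CPM in ALDH_High against 63.1 CPM in ALDH_Low.

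Mitochondrial DNA uses some sequence in more than 1 gene, which bears on how counts can be assigned. Shown first are the only pairs of mRNA reading frames that overlap by more than 1 base, with 15 bases on either side and the shared bases in capitals (GRCh38, plus strand, 5′ to 3′, positions from GENCODE 44). The first lies at chrM:8512-8587 and shares 46 bases, the second at chrM:10745-10781 and shares 7 bases.
MT-ATP8/MT-ATP6: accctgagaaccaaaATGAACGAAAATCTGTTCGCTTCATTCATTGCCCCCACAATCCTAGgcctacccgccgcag
MT-ND4L/MT-ND4: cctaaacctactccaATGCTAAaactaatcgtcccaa
In each pair both frames are read from 1 mature transcript, so a read on the capitals belongs to both genes.

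Next come the ends of the 6 mRNAs whose gene stops within a stop codon, because for these the poly(A) tail, the feature on which the libraries were selected, also completes the stop codon. The capitals mark the bases past the last whole codon (GRCh38, plus strand, at chrM:4243-4262, chrM:5493-5511, chrM:9972-9990, chrM:10386-10404, chrM:12119-12137 and chrM:15869-15887 in the order shown).
MT-ND1 end: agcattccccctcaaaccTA
MT-ND2 end: tttatactaataatcttaT
MT-CO3 end: atctattgatgagggtctT
MT-ND3 end: ggattagactgaaccgaaT
MT-ND4 end: attaccgggttttcctctT
MT-CYB end: aaaatactcaaatgggccT
The other 7 mRNAs carry a whole stop codon in the DNA, which is AGA for MT-CO1 and AGG for MT-ND6. That of MT-ATP6, TAA, shares its last base with the start of MT-CO3.

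The last set holds the 2 tRNAs with enough counts to be tested, MT-TM and MT-TL1, and the pair of tRNA genes that precede MT-TM. They lie at chrM:4402-4469 (MT-TM, tRNA for methionine, plus strand), chrM:3230-3304 (MT-TL1, a tRNA for leucine, plus strand), chrM:4263-4331 (MT-TI, tRNA for isoleucine, plus strand) and chrM:4329-4400 (MT-TQ, tRNA for glutamine, minus strand). Each gene is written 5′ to 3′ on its own strand, as DNA, with the anticodon in capitals.
MT-TL1: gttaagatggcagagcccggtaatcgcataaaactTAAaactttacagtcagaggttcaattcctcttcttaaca
MT-TI: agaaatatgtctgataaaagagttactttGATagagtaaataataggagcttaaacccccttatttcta
MT-TQ: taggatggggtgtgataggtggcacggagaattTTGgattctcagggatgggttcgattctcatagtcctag
MT-TM: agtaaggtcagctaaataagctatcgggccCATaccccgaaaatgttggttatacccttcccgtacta
MT-TM ends at position 4469, and MT-ND2 begins at the next base.

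Mitochondrial mRNA made up a smaller share of the sequenced RNA in ALDH_High than in ALDH_Low. The 13 mRNAs took 1.51%, 1.58% and 1.27% of all counts in ALDH_High, against 2.92%, 1.91% and 2.12% in ALDH_Low. All ALDH_High shares lay below all ALDH_Low shares, and ALDH_Low library 1 lay well above the other two libraries of its group. The means were 1.46 ± 0.164% and 2.32 ± 0.534% (SD, n = 3), a ratio of 1.59, with an exact two-sided permutation p of 0.1, the smallest that 3 against 3 libraries can give. Without ALDH_Low library 1 the mean log2 difference of the share was -0.47, compared with -0.65 over all libraries. In bulk RNA, fewer cells with much mitochondrial RNA and less mitochondrial RNA per cell cannot be told apart.

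Of the 37 genes, 17 passed edgeR's filter on low counts, namely all 13 mRNAs, both rRNAs and 2 tRNAs. At an adjusted p below 0.05, 7 fell and 1 rose in ALDH_High, where 9.83% of the 17047 genes tested were lower, 10.8% were higher and 20.6% were called in either direction. The 7 that fell were all mRNAs (MT-ND1, MT-ND4, MT-ND4L, MT-CYB, MT-CO1, MT-CO2 and MT-ATP6), and the 1 that rose was the tRNA gene MT-TM. All 13 mRNAs had a log2 fold change below 0, between -0.94 and -0.16 with a median of -0.63, beside a median of -0.013 over all genes tested. For 8 of the 13 every ALDH_High value lay below every ALDH_Low value, an arrangement found for 19.1% of all genes tested. In the authors' deposited table the difference between the coefficients of the high and the low group lay between -0.92 (MT-ND5) and -0.14 (MT-ND3) and was below 0 for all 13 mRNAs.

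Single libraries weighed on these counts. ALDH_Low library 1 held the highest CPM of all 6 libraries for 12 of the 13 mRNAs, and ALDH_High library 3 held the lowest for 8. Without ALDH_Low library 1, without ALDH_High library 2 or without ALDH_High library 3, 3 mitochondrial genes passed the threshold in each case, where 15.8%, 14.4% and 15.6% of all genes tested passed it. In each of these 3 fits they were MT-ND1 and MT-ND4, both lower, and MT-TM, higher. The count was 5 without ALDH_Low library 3 (14.2% of all genes tested), 7 without ALDH_High library 1 (23.7%) and 8 without ALDH_Low library 2 (14.0%), and MT-ND1, MT-ND4 and MT-TM were past the threshold in these 3 fits as well.

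**Figure D1:**
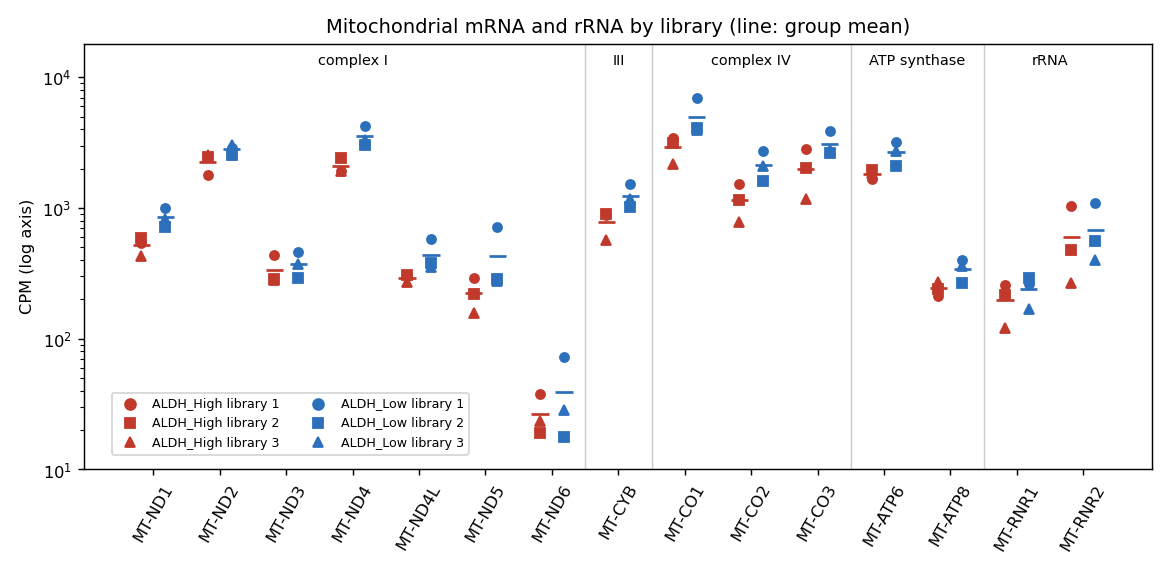
CPM (log axis) of the 13 mitochondrial mRNAs, grouped by respiratory complex, and of the 2 rRNAs in each library. Symbols are single libraries, red for ALDH_High and blue for ALDH_Low, and the short line is the group mean; the blue circle of ALDH_Low library 1 is the highest point for 12 of the 13 mRNAs.

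Complex I passes electrons from NADH into the respiratory chain, and its 7 mitochondrial subunits form the proton-pumping membrane arm. Of these 7 genes MT-ND1, MT-ND4 and MT-ND4L fell in ALDH_High, and the other 4 did not pass the test. Summed over the 7, complex I mRNA had 5337, 6314 and 5628 CPM in ALDH_High, against 9975, 7293 and 8199 CPM in ALDH_Low. No ALDH_High value reached the lowest of ALDH_Low (exact two-sided permutation p = 0.1).

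MT-ND4 (ENSG00000198886, chrM:10760-12137, plus strand), an antiporter-like subunit at the far part of the arm, had the smallest adjusted p of the mRNAs. Its CPM was 1925, 2423 and 1931 in ALDH_High, against 4276, 3055 and 3288 in ALDH_Low. All ALDH_High values lay below all ALDH_Low values, and the level was 1.69-fold higher in ALDH_Low (log2 fold change -0.76 with SE 0.15, edgeR adjusted p 0.00562). Leaving out single libraries gave log2 fold changes between -0.86 and -0.59.

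MT-ND1 (ENSG00000198888, chrM:3307-4262, plus strand), which helps form the quinone site, had 543, 588 and 429 CPM in ALDH_High, against 999, 721 and 822 CPM in ALDH_Low. There was no overlap (log2 fold change -0.70 with SE 0.15, edgeR adjusted p 0.00943). MT-ND4L, the small subunit whose frame runs into that of MT-ND4, had 300, 308 and 273 CPM in ALDH_High, against 580, 378 and 351 CPM in ALDH_Low. Its groups did not overlap either (log2 fold change -0.57 with SE 0.18, edgeR adjusted p 0.0454). This call was lost on leaving out any 1 library other than ALDH_Low library 3, and the log2 fold change was -0.30 without ALDH_Low library 1 (edgeR adjusted p 0.141). It was also lost with scaling on genes that are not MT- genes (log2 fold change -0.56, edgeR adjusted p 0.0512), under which 7 mitochondrial genes passed the threshold, as did 20.7% of all genes tested.

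The other 4 complex I genes differed in how the libraries lay. MT-ND2, another antiporter-like subunit, had 1803, 2469 and 2532 CPM in ALDH_High, against 2865, 2547 and 3063 CPM in ALDH_Low. Its groups did not overlap, but the gap between ALDH_High library 3 and ALDH_Low library 2 was small (log2 fold change -0.32 with SE 0.14, edgeR adjusted p 0.160). MT-ND5, the longest mitochondrial mRNA and the most distal pump subunit, had the log2 fold change farthest below 0, -0.94, with the wide SE of 0.35 (edgeR adjusted p 0.0904). Its CPM was 290, 219 and 159 in ALDH_High, against 719, 285 and 276 in ALDH_Low. ALDH_High library 1 overlapped the ALDH_Low group, and without ALDH_Low library 1 the log2 fold change was -0.32 (edgeR adjusted p 0.388).

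MT-ND3, a small subunit next to the quinone site, had 438, 288 and 281 CPM in ALDH_High, against 465, 290 and 371 CPM in ALDH_Low. The groups overlapped (log2 fold change -0.16 with SE 0.21, edgeR adjusted p 0.644), and the value was 0.035 without ALDH_Low library 1. MT-ND6 is the only mRNA of the light-strand precursor (ENSG00000198695, chrM:14149-14673, minus strand) and is known for lacking a poly(A) tail. It had 37.9, 18.9 and 23.5 CPM in ALDH_High, against 71.9, 17.8 and 28.3 CPM in ALDH_Low. The groups overlapped, with ALDH_Low library 2 the lowest of all 6 (log2 fold change -0.56 with SE 0.44, edgeR adjusted p 0.427), and without ALDH_Low library 1 the value was 0.23.

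**Figure D2:**
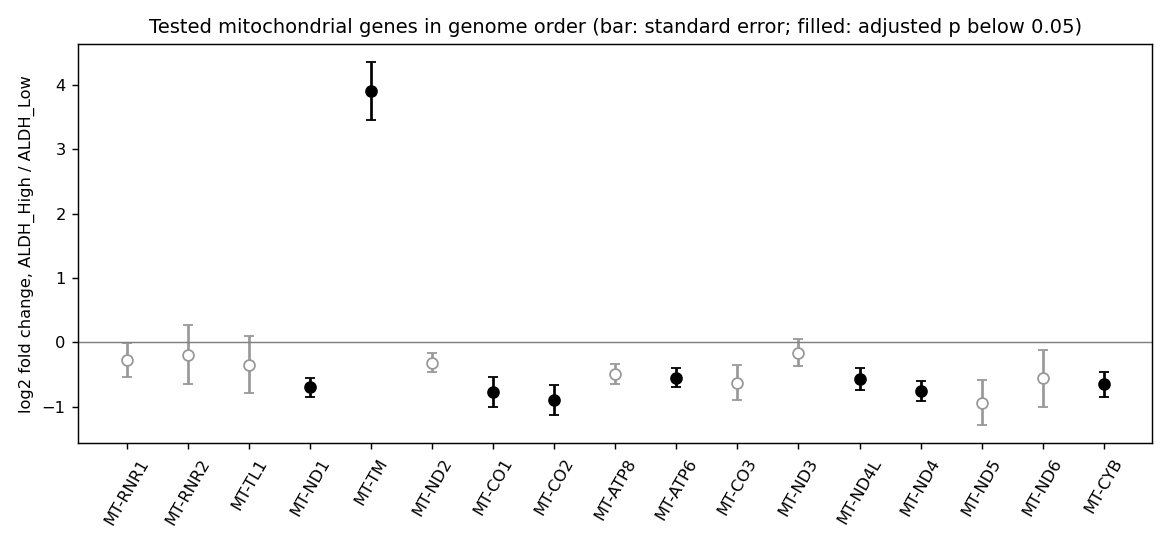
Log2 fold change (ALDH_High over ALDH_Low) of the 17 tested mitochondrial genes in genome order, with standard errors; filled points have an edgeR adjusted p below 0.05. MT-TM at 3.90 stands above 0, and all 13 mRNAs lie between -0.94 and -0.16.

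MT-CYB (ENSG00000198727, chrM:14747-15887, plus strand) encodes cytochrome b, the only mitochondrial subunit of complex III, which moves electrons from quinol to cytochrome c. It had 891, 894 and 573 CPM in ALDH_High, against 1521, 1015 and 1175 CPM in ALDH_Low. The groups did not overlap, and MT-CYB fell 1.57-fold in ALDH_High (log2 fold change -0.65 with SE 0.20, edgeR adjusted p 0.0389). The call was lost without ALDH_High library 2 (edgeR adjusted p 0.0570), ALDH_High library 3 (0.113), ALDH_Low library 1 (0.149) or ALDH_Low library 3 (0.0923).

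Complex IV, cytochrome c oxidase, reduces oxygen, and its catalytic core is made of the 3 mitochondrial subunits. MT-CO1 and MT-CO2, which bind the copper and heme centres, fell in ALDH_High, and MT-CO3 did not pass the test. Complex IV mRNA summed to 7784, 6310 and 4151 CPM in ALDH_High, against 13560, 8334 and 8875 CPM in ALDH_Low. Every ALDH_High sum was below every ALDH_Low sum (exact two-sided permutation p = 0.1).

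MT-CO1 (ENSG00000198804, chrM:5904-7445, plus strand) had the highest mean CPM of all mitochondrial genes in both groups, with 3449, 3134 and 2184 CPM in ALDH_High, against 6954, 4084 and 3976 CPM in ALDH_Low. The groups did not overlap (log2 fold change -0.78 with SE 0.23, edgeR adjusted p 0.0390). MT-CO2 (ENSG00000198712, chrM:7586-8269, plus strand) had 1519, 1152 and 789 CPM in ALDH_High, against 2726, 1620 and 2108 CPM in ALDH_Low. ALDH_High library 1 lay just under ALDH_Low library 2 without overlap (log2 fold change -0.90 with SE 0.24, edgeR adjusted p 0.0242). Both calls were lost without ALDH_High library 2 (edgeR adjusted p 0.0839 for MT-CO1 and 0.0741 for MT-CO2), ALDH_High library 3 (0.128 and 0.0653) or ALDH_Low library 1 (0.132 and 0.0942), and that of MT-CO2 also without ALDH_Low library 3 (0.0744). MT-CO1 had a log2 fold change of -0.45 without ALDH_Low library 1.

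MT-CO3, the third core subunit, had 2816, 2025 and 1178 CPM in ALDH_High, against 3880, 2630 and 2791 CPM in ALDH_Low. ALDH_High library 1 lay inside the ALDH_Low range (log2 fold change -0.63 with SE 0.27, edgeR adjusted p 0.138). Without that library MT-CO3 passed the test, at a log2 fold change of -0.94 (edgeR adjusted p 0.0204).

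ATP synthase uses the proton gradient to make ATP. Its proton channel contains the product of MT-ATP6, and MT-ATP8 encodes a small subunit of the stator. MT-ATP6 (ENSG00000198899, chrM:8527-9207, plus strand) had 1676, 1942 and 1841 CPM in ALDH_High, against 3201, 2090 and 2714 CPM in ALDH_Low. The groups did not overlap, and MT-ATP6 fell 1.47-fold in ALDH_High (log2 fold change -0.55 with SE 0.15, edgeR adjusted p 0.0276). That call was lost on leaving out any 1 library other than ALDH_Low library 2, with an edgeR adjusted p of 0.101 without ALDH_Low library 1. MT-ATP8 had 213, 242 and 273 CPM in ALDH_High, against 401, 265 and 358 CPM in ALDH_Low. ALDH_High library 3 lay above ALDH_Low library 2, and MT-ATP8 missed the threshold (log2 fold change -0.49 with SE 0.16, edgeR adjusted p 0.0547).

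Levels of different genes can be compared only per length, for which the deposited TPM (abundances corrected for transcript length) are used here. The lengths behind these TPM are not stated, so the order below holds for the deposited TPM only. Averaged over the 6 libraries, MT-ATP8 (5920 TPM), MT-ATP6 (5526 TPM) and MT-CO3 (5070 TPM) were highest, followed by MT-CO2 (3907), MT-ND2 (3772), MT-CO1 (3544), MT-ND4L (3414), MT-ND4 (2894) and MT-ND3 (2527). The first 3 kept their places within each group, but the order after them differed by group. In ALDH_High, MT-ND2 (3443 TPM) and MT-ND4L (2798) had higher means than MT-CO2 (2767) and MT-CO1 (2652), and MT-ND3 (2416) a higher mean than MT-ND4 (2200). From MT-ATP8 to MT-ND3 over all libraries, each neighbour in this order overlapped the next in its range over libraries. MT-CYB (1264 TPM, at most 1913 in a library) lay below every library of MT-ND3 (at least 2079 TPM) and overlapped the range of MT-ND1 (1059 TPM). MT-ND5 (245 TPM, at most 547) lay below every library of MT-ND1 (at least 714 TPM), and MT-ND6 (118 TPM) overlapped MT-ND5. The co-transcribed pairs had similar deposited TPM in every library, with 0.819 to 0.976 MT-ATP6 per MT-ATP8 and 0.706 to 1.03 MT-ND4 per MT-ND4L. For both pairs the ratios of the groups overlapped. This similarity depends on the lengths used, because per annotated base the second gene of each pair had more counts. Mean counts in ALDH_High were 7700 over 207 bases for MT-ATP8 and 57464 over 681 bases for MT-ATP6. For MT-ND4L they were 9189 over 297 bases, and for MT-ND4 66132 over 1378 bases.

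The composition of the mitochondrial mRNA differed between libraries, most within ALDH_High. Complex I genes made up 33.6%, 40.2% and 45.1% of the counts on the 13 mRNAs in ALDH_High, against 34.8%, 38.4% and 38.5% in ALDH_Low. Complex IV genes made up 49.0%, 40.2% and 33.3% in ALDH_High, against 47.3%, 43.9% and 41.6% in ALDH_Low. Both sets of shares overlapped between groups, as did those of complex III and ATP synthase. Within ALDH_High, MT-ND2 had shares of 11.3%, 15.7% and 20.3% and MT-CO3 shares of 17.7%, 12.9% and 9.45%. In ALDH_Low the shares of MT-CO3 were 13.54%, 13.85% and 13.09%, inside the ALDH_High range. MT-ND3 was the 1 mRNA whose shares did not overlap, with 2.75%, 1.83% and 2.25% in ALDH_High, against 1.62%, 1.53% and 1.74% in ALDH_Low, a feature noticed after the values were seen.

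**Figure D3:**
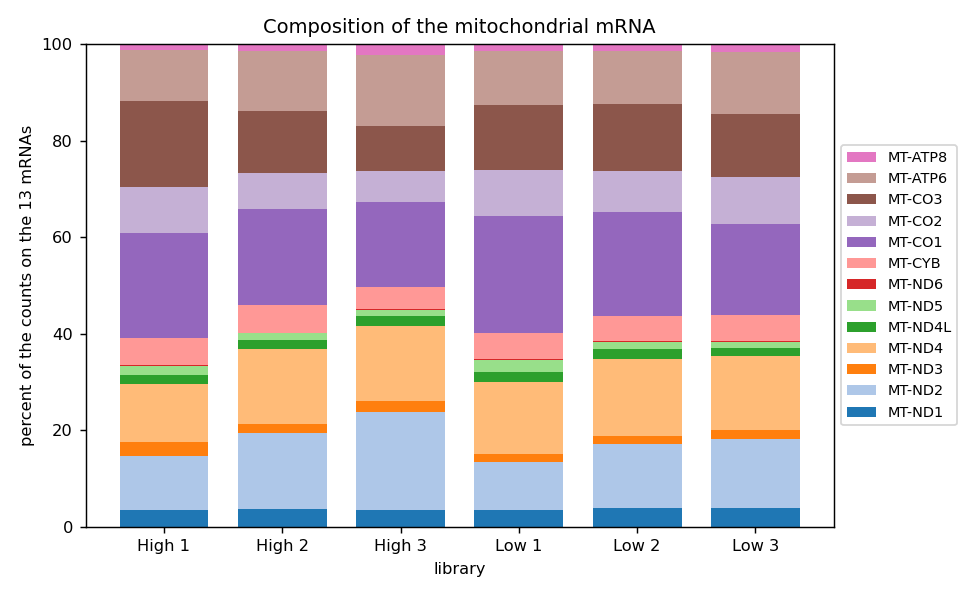
Percent of the counts on the 13 mitochondrial mRNAs taken by each gene, 1 stacked bar per library, genes ordered by complex from complex I at the bottom to ATP synthase at the top. Complex I genes take between 33.6% and 45.1% of a bar, with both extremes in ALDH_High libraries.

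Features of the genes themselves were set beside the calls. Of the 6 mRNAs whose annotated gene stops within a stop codon, shown above by their ends, 3 fell (MT-ND1, MT-ND4 and MT-CYB). Their median log2 fold change was -0.64. Of the 7 with a whole stop codon in the DNA 4 fell (MT-CO1, MT-CO2, MT-ATP6 and MT-ND4L), with a median of -0.57. In MT-ATP6 the last base of that codon, chrM:9207, is also the first base of MT-CO3. The split therefore follows the annotated DNA, and which mature mRNAs end in a whole stop codon was not tested. MT-ND6 on the light strand was set against the 12 mRNAs of the heavy-strand precursor. There were 0.239, 0.121 and 0.189 MT-ND6 counts per 100 heavy-strand mRNA counts in ALDH_High, against 0.252, 0.0936 and 0.133 in ALDH_Low. The groups overlapped, with library 1 highest in each (exact two-sided permutation p = 0.8), and the mean log2 difference of 0.27 was -0.055 without ALDH_Low library 2.

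MT-RNR1 and MT-RNR2 encode the rRNAs of the small and the large subunit of the mitochondrial ribosome. Neither passed the test by edgeR, DESeq2 or limma, nor did either reach an unadjusted edgeR p below 0.05. MT-RNR2 had 1039, 480 and 267 CPM in ALDH_High, against 1087, 561 and 400 CPM in ALDH_Low (log2 fold change -0.20 with SE 0.46, edgeR adjusted p 0.816). MT-RNR1 had 257, 215 and 122 CPM in ALDH_High, against 260, 290 and 169 CPM in ALDH_Low (log2 fold change -0.28 with SE 0.26, edgeR adjusted p 0.528). Both genes overlapped between groups, and MT-RNR2 was highest in library 1 of each. The log2 fold change of MT-RNR2 was 0.32 without ALDH_Low library 1 and 0.17 without ALDH_High library 3.

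Relative to the mRNAs, rRNA counts numbered 8.15, 4.43 and 3.12 per 100 mRNA counts in ALDH_High, against 4.70, 4.48 and 2.67 in ALDH_Low. The groups overlapped (exact two-sided permutation p = 0.6), and the mean log2 difference of 0.34 was -0.042 without ALDH_High library 1. MT-RNR1 counts per 100 MT-RNR2 counts were 24.8, 44.8 and 45.5 in ALDH_High, against 24.0, 51.6 and 42.3 in ALDH_Low. Libraries numbered 1 stood apart from the rest in both groups in this ratio, and the labels give no batch or date for them. Without both libraries numbered 1, an alternative chosen after seeing the data, 7 mitochondrial genes passed the threshold, 6 of them lower (MT-ND1, MT-CO1, MT-CO2, MT-CO3, MT-ND4 and MT-ND5) and MT-TM higher. Of all genes tested 22.8% passed it in that fit, 10.9% lower and 11.9% higher.

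Among the tRNAs, MT-TM was 14.97-fold higher in ALDH_High, while the remaining 21 genes had too few counts for most comparisons. MT-TM (ENSG00000210112), which carries methionine for both initiation and elongation in the organelle, had 81, 91 and 86 counts in ALDH_High, against 12, 2 and 4 counts in ALDH_Low. In CPM the values were 3.19, 2.63 and 2.52 against 0.311, 0.0669 and 0.144. The groups were far apart, with means of 2.78 ± 0.361 CPM in ALDH_High, against 0.174 ± 0.125 CPM in ALDH_Low (± SD, n = 3), and a log2 fold change of 3.90 with SE 0.45 (edgeR adjusted p 0.000235). A log2 fold change at least this high was reached by 83 genes, 0.487% of those tested, and a complete separation of the groups upward by 18.6%. MT-TM passed the threshold in all 16 alternatives that tested it, with log2 fold changes between 3.54 and 4.70; a minimum of 10 counts in every library left it untested.

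MT-TM made up 41.8%, 66.9% and 68.3% of all tRNA counts in ALDH_High, against 7.14%, 4.76% and 10.8% in ALDH_Low. Its neighbours on the genome, whose sequences are shown above with it, did not share this pattern of counts. MT-TI had 12, 2 and 8 counts in ALDH_High, against 15, 1 and 2 in ALDH_Low, and MT-TQ on the opposite strand had 4, 1 and 2 in ALDH_High, against 14, 2 and 1 in ALDH_Low. Both overlapped between groups, and MT-ND2, which begins at the base after MT-TM, had a log2 fold change of -0.32, opposite in sign to that of MT-TM. Differences between MT-TM and these genes were not tested.

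The nuclear genome holds a copy of this stretch on chromosome 1, which limits what the MT-TM counts can be assigned to. The 68 bases of MT-TM match chr1:629572-629639 (GRCh38) at 67 positions, MT-TI matches chr1:629433-629501 at 67 of 69, and MT-TQ matches chr1:629499-629570 at all 72. The pseudogene MTND2P28 begins at the next base after the copy of MT-TM, at chr1:629640-630683. Its counts were 1.72 to 2.00 per 100 MT-ND2 counts in every library, with overlapping groups. Whether the MT-TM counts came from the mitochondrial gene, from this copy or from precursors that span it was not tested.

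**Figure D4:**
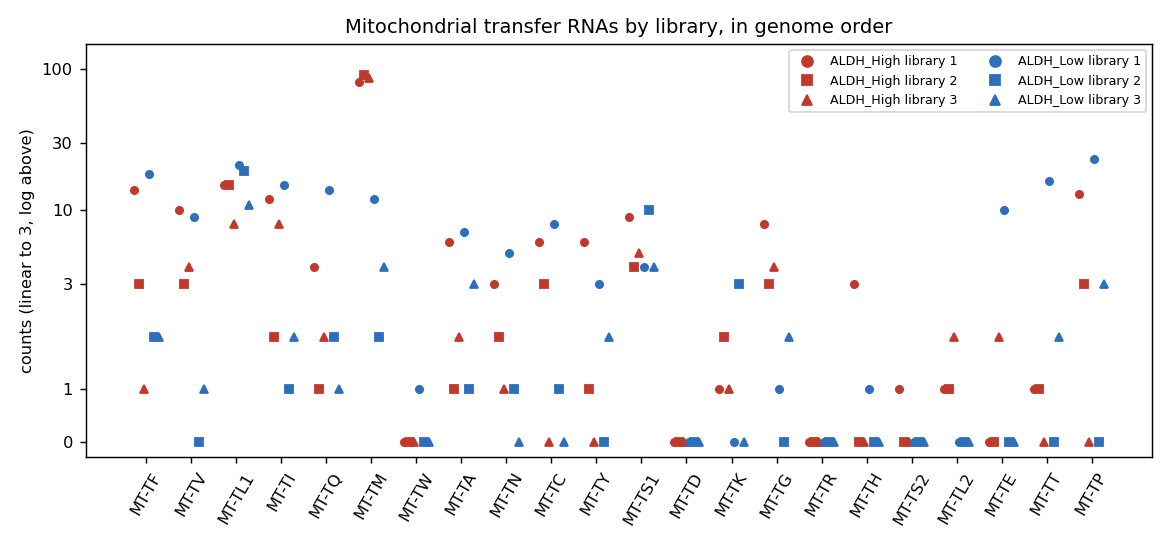
Deposited counts of the 22 mitochondrial tRNA genes in genome order, 1 symbol per library (axis linear up to 3 counts and logarithmic above). MT-TM reaches 81 to 91 counts in the ALDH_High libraries, and no other tRNA gene exceeds 23 counts in any library.

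MT-TL1, the leucine tRNA shown above and the other tested tRNA, had 15, 15 and 8 counts in ALDH_High, against 21, 19 and 11 in ALDH_Low. The groups overlapped (log2 fold change -0.35 with SE 0.44, edgeR adjusted p 0.646). Of the 20 untested tRNA genes, MT-TD and MT-TR had no count in any library, and MT-TW, MT-TK, MT-TH, MT-TS2 and MT-TL2 had at most 3, the level treated as the floor. MT-TG, the glycine tRNA, had 8, 3 and 4 counts in ALDH_High, against 1, 0 and 2 in ALDH_Low. Its ALDH_High libraries all lay above ALDH_Low, with an exact two-sided permutation p of 0.1 in CPM, and those of MT-TL2 did so with 1, 1 and 2 counts against none. The other untested genes overlapped between groups. Among them MT-TS1, for serine, had 9, 4 and 5 counts in ALDH_High, against 4, 10 and 4 in ALDH_Low. MT-TP and MT-TT, for proline and threonine, had their most counts in ALDH_Low library 1, 23 and 16, and there MT-TE, for glutamate, had 10 counts, with 2 or fewer elsewhere. MT-TF, MT-TV, MT-TA, MT-TN, MT-TC and MT-TY, for phenylalanine, valine, alanine, asparagine, cysteine and tyrosine, had at most 18 counts in library 1 of either group and at most 4 in the other libraries. Without MT-TM the tRNA counts summed to 113, 45 and 40 in ALDH_High, against 156, 40 and 33 in ALDH_Low. Library 1 was highest in each group and the groups overlapped. At this depth no difference was detectable for the tRNA genes that overlapped, and such counts cover what a poly(A) kit captures, not the pool of mature tRNA.

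Nuclear pseudogenes copied from mitochondrial DNA can take or give reads, and 407 were listed, 51 of them with any count. The one with the most counts, MTATP6P1 (chr1:633696-634376), is 98.5% identical to MT-ATP6 over 681 bases. It had 5398, 9749 and 8694 counts in ALDH_High, against 16303, 9636 and 9861 in ALDH_Low. Per 100 MT-ATP6 counts this was 12.7 to 15.4, with overlapping groups. MTND2P28 is 98.4% identical over 1044 bases, MTCO1P12 98.6% over 1543, MTND1P23 (chr1:629062-629433) 99.2% over 353 and MTND4P12 on chromosome 5 95.8% over 1376. MTND1P23, which ends at the first base of the copy of MT-TI, had 0.908, 0.654 and 0.629 counts per 100 MT-ND1 counts in ALDH_High, against 0.623, 0.431 and 0.612 in ALDH_Low. These groups did not overlap, with ALDH_High library 3 just above ALDH_Low library 1 (exact two-sided permutation p = 0.1). Levels of MT-ATP6, MT-ND2, MT-CO1, MT-ND1 and MT-ND4 are uncertain to the extent that such reads were shared, which the sources used here do not state.

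Few nuclear partners of these subunits passed the test. Of 72 nuclear genes for complexes I, III and IV and ATP synthase, all tested, 1 fell (1.39%, beside 9.83% of all genes) and none rose in ALDH_High by edgeR (1 and 1 at an unadjusted p below 0.05, and 1 and 1 by DESeq2). Their median log2 fold change was -0.096 with 55 values below 0. Over all genes tested the median was -0.013, with 8767 of 17047 values below 0. The gene that fell was ATP5F1A, the alpha subunit of the catalytic head, with means of 493 ± 18.03 CPM in ALDH_High, against 701 ± 31.4 CPM in ALDH_Low (± SD, n = 3), and a log2 fold change of -0.51 (edgeR adjusted p 0.00518). Median log2 fold changes were -0.071 for 37 genes of complex I, -0.12 for 9 of complex III, -0.13 for 11 of complex IV and -0.14 for 15 of ATP synthase. Among the next by p within their complexes were NDUFB10 (-0.32) and NDUFA1 (-0.24) for complex I, UQCR10 (-0.28), UQCRC2 (-0.26) and UQCR11 (0.27) for complex III, NDUFA4 (0.35), COX7C (-0.27) and COX7B (-0.24) for complex IV, and ATP5F1E (0.47) and ATP5ME (-0.33) for ATP synthase. The edgeR adjusted p of these 10 lay between 0.104 and 0.327.

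Counts of mitochondrial mRNA were also set against those of the nuclear subunits within each library, a comparison added after the values were seen. For the 4 complexes together there were 140, 162 and 136 mitochondrial counts per 100 nuclear counts in ALDH_High, against 273, 182 and 181 in ALDH_Low. All ALDH_High ratios lay below all ALDH_Low ratios, with a mean log2 difference of -0.51 (exact two-sided permutation p = 0.1, the smallest possible). The ratios of complexes I, III and IV were arranged in the same way, with mean log2 differences of -0.47, -0.54 and -0.67. For ATP synthase the groups overlapped, with 46.1, 61.0 and 61.8 in ALDH_High, against 90.8, 57.9 and 69.6 in ALDH_Low (exact two-sided permutation p = 0.3).

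**Figure D5:**
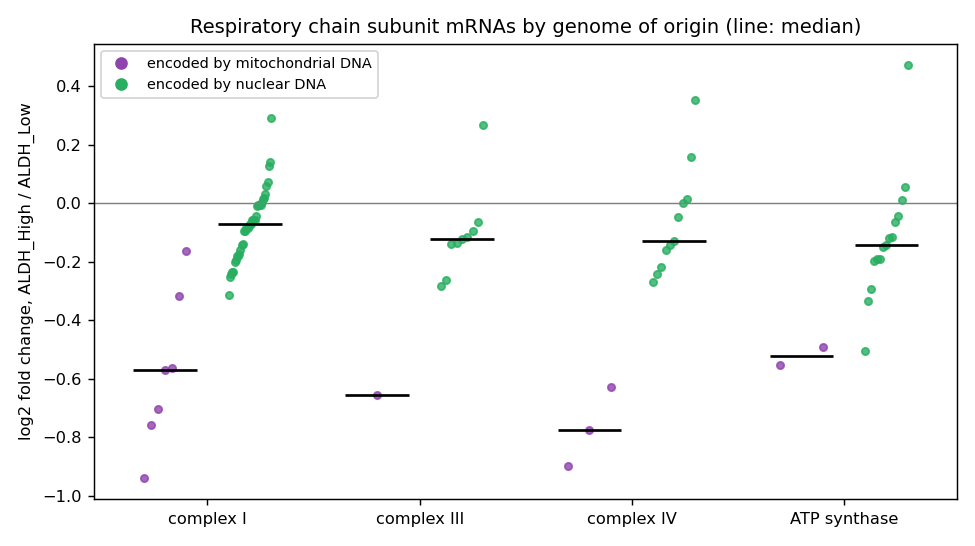
Log2 fold change (ALDH_High over ALDH_Low) of each subunit mRNA, mitochondrial genes in purple and nuclear genes in green, by complex, with black lines at the medians. The nuclear medians lie between -0.14 and -0.071, and the mitochondrial genes between -0.94 and -0.16.

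Nuclear genes that act on mitochondrial DNA and RNA were described from fixed lists, whose counts stand beside 10.8% higher and 9.83% lower over all genes tested. Among 9 genes of mitochondrial transcription 2 rose in ALDH_High (22.2% of the list) and none fell, with a median log2 fold change of -0.057. MTERF1, a termination factor that binds the leucine tRNA gene downstream of the rRNAs, had 17.3, 22.5 and 25.9 CPM in ALDH_High, against 13.64, 12.21 and 13.52 CPM in ALDH_Low (log2 fold change 0.74, edgeR adjusted p 0.0108). TFB1M, which methylates the small rRNA, had 21.7, 18.2 and 18.2 CPM in ALDH_High, against 12.8, 14.3 and 14.6 CPM in ALDH_Low (log2 fold change 0.48, edgeR adjusted p 0.0371). For both genes every value of ALDH_High exceeded every value of ALDH_Low, but the call of TFB1M was lost on leaving out any 1 library (edgeR adjusted p 0.05001 to 0.114). The transcription machinery itself, namely the polymerase POLRMT (log2 fold change -0.18), the initiation factor TFB2M (-0.14) and the DNA-packaging activator TFAM (-0.082), did not pass the test, with edgeR adjusted p between 0.401 and 0.667.

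Of 19 genes for processing and stability of mitochondrial RNA, 1 rose (5.26%) and none fell (median log2 fold change -0.022). It was FASTKD5, which is needed to cut precursor junctions that no tRNA punctuates, with means of 56.2 ± 4.93 CPM in ALDH_High, against 41.2 ± 2.48 CPM in ALDH_Low (± SD, n = 3), and a log2 fold change of 0.45 (edgeR adjusted p 0.0214). This call was lost without ALDH_High library 3 (edgeR adjusted p 0.0738), ALDH_Low library 1 (0.0659) or ALDH_Low library 2 (0.0943). ELAC2, which cuts the 3′ ends of tRNAs, had a log2 fold change of -0.24 (edgeR adjusted p 0.177), and FASTK one of -0.26 (0.231). LRPPRC, which stabilises mitochondrial mRNAs, averaged 192 ± 30.003 CPM in ALDH_High against 182 ± 11.2 CPM in ALDH_Low, with overlapping groups (log2 fold change 0.071, edgeR adjusted p 0.763).

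Of 13 genes for replication and upkeep of mitochondrial DNA, 1 rose (7.69%) and none fell (median log2 fold change 0.084). MGME1, an exonuclease of mitochondrial DNA, had 46.6, 52.1 and 52.7 CPM in ALDH_High, against 33.4, 30.3 and 36.7 CPM in ALDH_Low. All of ALDH_High lay above ALDH_Low (log2 fold change 0.59, edgeR adjusted p 0.00638). TOP1MT, the mitochondrial topoisomerase, and PRIMPOL, a primase-polymerase, had log2 fold changes of 0.33 and -0.46 (edgeR adjusted p 0.0795 and 0.0931). Mitochondrial DNA itself was not measured.

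None of 8 regulators of mitochondrial biogenesis passed the test by edgeR, DESeq2 or limma, and 1 had an unadjusted edgeR p below 0.05 (median log2 fold change -0.015). PPARGC1A, the coactivator PGC-1 alpha, was low, with 28, 15 and 0 counts in ALDH_High, against 16, 11 and 6 in ALDH_Low (log2 fold change 0.54 with SE 0.90, edgeR adjusted p 0.731). Its relative PPARGC1B had a log2 fold change of -0.38 (edgeR adjusted p 0.154), and GABPA and GABPB1, which form the nuclear respiratory factor NRF-2, had 0.28 and 0.20 (0.263 and 0.367). Among 20 mitochondrial aminoacyl-tRNA synthetases 1 rose, 5% of the list, and none fell (median 0.013). AARS2, which charges the alanine tRNA, had means of 43.2 ± 3.31 CPM in ALDH_High, against 33.1 ± 1.83 CPM in ALDH_Low (± SD, n = 3), and a log2 fold change of 0.38 (edgeR adjusted p 0.0416). It was lost without ALDH_High library 2 (edgeR adjusted p 0.132) or without ALDH_Low library 1 (0.116), 2 (0.0799) or 3 (0.124). HARS2 (-0.29) missed the threshold (edgeR adjusted p 0.0781), and MARS2, which charges the product of MT-TM, had a log2 fold change of -0.018 (0.954) and is named here because of that tRNA.

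Other RNAs that bear on library make-up were listed beside the mitochondrial results, and their counts stand beside the 9.83% of all genes tested that were lower. RNAs listed as lacking a poly(A) tail, which such libraries capture poorly, summed to 50.3, 53.9 and 37.8 CPM of unscaled total counts in ALDH_High, against 73.0, 111 and 79.0 in ALDH_Low. The groups did not overlap, with ALDH_High below, as for the mitochondrial mRNA share. The libraries of ALDH_High kept the same order in both, but those of ALDH_Low did not. ALDH_Low library 1 had the lowest sum of its group (73.0) but the highest mRNA share (2.92%). Of 11 tested members 3 (27.3%) fell (H1-2, H2AC6 and RN7SL2). Among the histone genes, H1-2 had 264 to 992 counts and H4C3 had 1 to 14. Whether counts of histone genes came from RNA without a tail was not tested. Genes of sorting stress summed to 4167, 1921 and 1975 in ALDH_High, against 6378, 2918 and 3993 in ALDH_Low, with ALDH_Low library 1 highest. The groups overlapped, with ALDH_High library 1 above ALDH_Low libraries 2 and 3, and of 12 tested members 3 (25%) fell (ATF3, DUSP1 and JUNB). Nuclear-retained RNAs summed to 69.2, 163 and 264 in ALDH_High, against 367, 170 and 222 in ALDH_Low, with overlapping groups and ALDH_Low library 1 again highest. None of the 3 tested passed by edgeR, DESeq2 or limma or had an unadjusted p below 0.05 in these, with edgeR log2 fold changes of -0.90 for NEAT1, -0.34 for MALAT1 and -0.11 for KCNQ1OT1 (adjusted p 0.163, 0.620 and 0.788). White blood cell markers summed to 28.1, 21.3 and 14.5 in ALDH_High, against 68.9, 70.2 and 58.0 in ALDH_Low, most of it from CD68, a lysosomal protein of many cell types, and in ALDH_High also from LYZ. Of 3 tested white blood cell markers, CD68 and CD14 fell in ALDH_High (edgeR adjusted p 0.000273 and 0.0142) and LYZ rose (log2 fold change 1.65, 0.0240). Fibroblast and vessel markers summed to 7.92 to 12.7 over all libraries and overlapped between groups, and none of 5 tested passed by edgeR (2 at an unadjusted p below 0.05, 1 by DESeq2), with DCN and LUM closest (adjusted p 0.0656 and 0.0718). Keratinocyte markers summed to 44.1 to 61.1, most of it from KRT10 and KRT14, and overlapped between groups. Of 3 tested keratinocyte markers KRT5 fell, with 0.133 ± 0.0488 CPM in ALDH_High, against 1.72 ± 0.941 CPM in ALDH_Low (± SD, n = 3) and no overlap (log2 fold change -3.63, edgeR adjusted p 0.000898). The part of any of these in the mitochondrial results was not tested.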

How the data were processed

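Libraries came from a TruSeq Stranded mRNA kit, per the labels' protocols. The submitters' processing notes name FastQC 0.11.3, STAR 2.5.1b, HTSeq 0.6.1, DESeq2 and the build GRCh38, without giving roles; the annotation release and whether counting used strand are not given in the sources used here. The authors deposited whole-number counts for 57914 genes, which behave as rounded estimated counts, since 133 to 177 genes per library had a count of 0 beside a TPM above 0. They also deposited TPM, with gene lengths not stated, and log2 coefficients of a model that sets each group against a group named 1A3, whose libraries were not analysed here. Rows without a gene name held at most 0.0267% of counts and stayed in.

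Counts were filtered (filterByExpr, 17047 genes kept), TMM-scaled and tested across all genes with edgeR 4.0.16 in R 4.3.3 (quasi-likelihood F-test, no replicate term), with Benjamini-Hochberg adjustment over all genes tested and a threshold of 0.05. Standard errors come from the fold change and the F statistic. Summed shares and ratios were compared by exact two-sided permutation over libraries. Scripts were tested on simulated data. Alternatives were DESeq2 1.42.0 and limma 3.58.1 on log2(TPM + 1) or log2(TPM + 0.1), other scalings and filters, the replicate number as a block, and each library left out in turn.

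Every mitochondrial gene is described; from the lists of nuclear and library make-up genes, the 3 members with the smallest p, ALDH1A3, PPARGC1A, TFAM, POLRMT and LRPPRC, and the 5 nuclear copies with the most counts are named, except that a detail on 2 genes is not reported here. Genes of the cell type marker lists were picked after their values were seen. The members and lists were chosen with earlier results of these data known. Sequences and positions come from GRCh38 with GENCODE 44.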

Additional observations from a re-analysis of the deposited data

How the results depend on the processing

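Of 17 tested mitochondrial genes 8 passed the threshold, 7 lower and 1 higher in ALDH_High. The count was 4 (2 lower, 2 higher) with limma on log2(TPM + 1) and on log2(TPM + 0.1) (16.1% and 16.2% of all genes), 2 (0 lower, 2 higher) with limma without a TPM filter (5.76%), where 6 mRNAs were lower at an unadjusted p below 0.05, and 3 (2 lower) at an adjusted p below 0.01 (11.3%); in the limma fits the second gene that rose was MT-TL2, with 1, 1 and 2 counts against none. Without a filter on low counts 11 genes were lower, beside 6.02% of the 34665 genes tested in that fit. Under a minimum of 10 counts per library 7 were lower and none was higher, because MT-TM was not tested. Of the 14686 genes tested under that minimum, 9.34% were lower and 10.6% higher. Leaving out single libraries gave 3 to 8 genes, 2 to 7 of them lower and 1 higher in each. MT-ND1 and MT-ND4 were past the threshold in 16 of 17 alternatives, the exception being limma without a TPM filter (adjusted p 0.0848 and 0.1003). The mean log2 difference of the summed mRNA share was below 0 in every alternative run. The sign changed on leaving out single libraries for other results. The mean log2 difference of the light to heavy strand ratio ranged from -0.055 to 0.66 and that of the rRNA to mRNA ratio from -0.042 to 0.65. The log2 fold changes ranged likewise for MT-RNR2 (-0.85 to 0.32), MT-ND3 (-0.38 to 0.035) and MT-ND6 (-0.91 to 0.23), above 0 without ALDH_Low library 1 and, for MT-RNR2, also without ALDH_High library 3 (0.17); the cause was not tested.

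Deviations from group means of same-numbered libraries correlated at 0.15, 0.076 and 0.108, above those of differently numbered libraries (-0.103 to 0.023). The main fit did not use the replicate numbers to pair libraries, and the labels do not say whether same-numbered libraries belong together. With the replicate number as a block 10 genes passed, 9 lower, MT-CO3 and MT-ND5 among them, and 1 higher, beside 22.0% of all genes (10.6% lower, 11.4% higher). With 3 libraries per group, counts of a few reads for most tRNAs, and 1 library, ALDH_Low 1, high in most mRNAs, sizes of the differences are imprecise.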
